A study of Homo sapiens with 12 samples.

Results

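The genes described here are 10 genes of the LIN28, HMGA and IGF2BP families and of the decay step that LIN28 feeds into: LIN28B, LIN28A, HMGA1, HMGA2, IGF2BP1, IGF2BP2, IGF2BP3, DIS3L2, TUT4 and TUT7. They were found by gene symbol among 60675 genes in the count tables, and all 10 were present. They were chosen by a measured value, the lower LIN28B count under sh-SOX9-AS1 in the libraries labelled HCC1187. Their values in that contrast are therefore a description, with no p-value. The number of them past the threshold there is printed once, beside the share of all genes, and nothing is read from it. The study targeted the long non-coding RNA SOX9-AS1 with a short hairpin RNA in a pair of breast cancer cell lines that the labels call basal-like. It has 4 groups of 3 libraries each: MDA-MB-468 with sh-SOX9-AS1, MDA-MB-468 with sh-CONTROL, HCC1187 with sh-SOX9-AS1 and HCC1187 with sh-CONTROL. The control hairpin was directed against LacZ, a bacterial gene that human cells lack, and all 12 libraries came from cells transfected for 48 h. MDA-MB-468 was grown in DMEM and HCC1187 in RPMI-1640, so a difference between the lines and a difference between the media cannot be told apart. The labels name no clone and no hairpin sequence, and they do not say whether the 3 libraries of each group are separate cultures. The p-values then measure only the spread between these libraries, which may be technical.

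LIN28A and LIN28B are RNA-binding proteins of embryonic tissue that block the maturation of the let-7 family of microRNAs, and they are often switched on again in tumours. LIN28 binds the terminal loop of the let-7 precursor and recruits the terminal uridylyltransferases TUT4 and TUT7, which add a uridine tail, and the exonuclease DIS3L2 then degrades the tailed precursor. Mature let-7 in turn represses messages that carry its seed match in the 3′ UTR. HMGA2, IGF2BP1 and LIN28B itself are among its best known targets, so that LIN28 and let-7 restrain each other. HMGA1 and HMGA2 are small chromatin proteins that bind AT-rich DNA, and the IGF2BP proteins bind messages, including that of IGF2, and stabilise them.

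The libraries held 6026376 (S10) to 10160040 (S12) gene counts from the lane used, with 20265 to 23915 genes detected. They are called S1 to S12 by the library number in the count columns: S4 to S6 are MDA-MB-468 sh-SOX9-AS1, S1 to S3 its sh-CONTROL, S10 to S12 HCC1187 sh-SOX9-AS1 and S7 to S9 its sh-CONTROL. S4 stood apart from S5 and S6, and the biological coefficient of variation of the MDA-MB-468 libraries was 0.161 with S4 and 0.0778 without it. Results in that line are therefore given with and without S4, a choice made with earlier results of these data known. The target SOX9-AS1 had a log2 fold change of −1.08 ± 0.36 (SE) in HCC1187 (edgeR quasi-likelihood test, adjusted p = 0.0349) and −0.30 ± 0.20 in MDA-MB-468 (adjusted p = 0.417). The difference between the lines was not called (adjusted p = 0.268). In HCC1187 the target rested on few counts, 8, 5 and 9 with sh-SOX9-AS1 against 24, 13 and 17 with sh-CONTROL. MDA-MB-468 had 35, 36 and 36 against 54, 53 and 51 counts (4.5 to 5.0 against 5.5 to 6.7 CPM). In both lines every knockdown library lay below every control library in CPM, so the lines are not told apart by the call.

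The markers of a basal-like breast epithelial cell go against the HCC1187 label. The summed level of 9 such markers ran from 334.3 to 352.8 CPM (counts scaled to a library total common to all) in HCC1187 sh-SOX9-AS1 and from 379.4 to 388.0 CPM in HCC1187 sh-CONTROL, against 10320 to 13180 CPM and 12290 to 12940 CPM in the same groups of MDA-MB-468. Cytokeratin genes KRT19, KRT5 and KRT14 had at most 0.212 CPM in any HCC1187-labelled library, and the epithelial adhesion gene EPCAM had 4.03 to 8.18 CPM there. Still, 6 of the 9 averaged 1 CPM or more in both HCC1187 groups, against 9 in both groups of MDA-MB-468. Among these 6 were KRT8 (166 to 201 CPM), KRT18 (73.0 to 103 CPM) and EGFR (57.5 to 65.3 CPM in the HCC1187 libraries). A list of 6 markers of the HEK293 line, an embryonic kidney line, was drawn up with earlier results of these data known. It summed to 269.8 to 306.9 CPM in HCC1187 sh-SOX9-AS1 and 416.6 to 444.0 CPM in HCC1187 sh-CONTROL, with 5 of 6 markers at 1 CPM or more in both groups and PAX8 below that. In MDA-MB-468 the list summed to 18.4 to 22.0 CPM with sh-SOX9-AS1 and 18.0 to 20.2 CPM with sh-CONTROL. Leukocyte markers summed to at most 3.98 CPM and endothelial markers to at most 5.72 CPM in any library. Fibroblast markers summed to 73.0 to 91.9 CPM in HCC1187 sh-SOX9-AS1 and 66.9 to 75.3 CPM in HCC1187 sh-CONTROL, mostly COL1A1, with COL1A2 at 0. The name HCC1187 is used below for the libraries so labelled.

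The let-7 family is the sequence through which the LIN28 genes and their targets are linked, so its mature forms are shown first. RefSeq (GRCh38.p14) lists 12 let-7 hairpins, miR-98 included, with 9 distinct mature 5p sequences, and all of them share the seed GAGGUAG at bases 2 to 8. In the 4 examples that follow the capitals mark the seed.
hsa-let-7a-5p: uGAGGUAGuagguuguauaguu
hsa-let-7d-5p: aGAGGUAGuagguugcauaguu
hsa-let-7g-5p: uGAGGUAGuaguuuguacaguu
hsa-miR-98-5p: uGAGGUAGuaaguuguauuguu

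GGAG is the motif that the zinc knuckles of LIN28 recognise in the loop of a let-7 hairpin. It was found after the mature 5p arm in 9 of 12 let-7 hairpins, and not in those of let-7a-3, let-7b and miR-98. Of all 1562 human hairpins in the table, 678 (43.41%) held GGAG somewhere on the transcribed strand, so the motif by itself is common. The hairpins of let-7g (chr3:52268278-52268361, minus strand) and let-7b (chr22:46113686-46113768, plus strand) are printed as an example with and an example without it, with GGAG in capitals.
let-7g hairpin: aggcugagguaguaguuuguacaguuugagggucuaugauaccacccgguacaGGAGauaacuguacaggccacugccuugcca
let-7b hairpin: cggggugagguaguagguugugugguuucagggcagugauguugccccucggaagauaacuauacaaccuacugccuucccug

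Seed matches for let-7 were then searched in the genes themselves. The motif CTACCTC, the complement of the seed, was searched on the transcribed strand of the 3′ UTR of a coding transcript of each gene (GENCODE v29, GRCh38). LIN28B, HMGA2 and IGF2BP1 held 4 matches each, LIN28A, HMGA1, IGF2BP2 and IGF2BP3 held 1 each, and DIS3L2, TUT4 and TUT7 held 0. Among 18893 genes with a 3′ UTR, 1625 (8.6%) held at least 1 match. Long UTRs hold more matches by length alone: among genes whose UTR was within 20% of the length of that of LIN28B (4549 bases), 23.27% held a match and 0.248% held 4 or more. The share with 4 or more was 0.107% around the length of HMGA2 (3003 bases) and 0.596% around that of IGF2BP1 (6206 bases). The UTRs without a match were short, with 567 bases in DIS3L2, 660 in TUT4 and 718 in TUT7. The matches of the 3 genes with 4 are printed with the bases around them, CTACCTC in capitals, because these genes carry the values that differ most below. All lie within 1 exon on the plus strand.
LIN28B match 1, chr6:105078812-105078834: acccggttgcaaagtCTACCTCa
LIN28B match 2, chr6:105081239-105081261: tactgatgatagtaaCTACCTCt
LIN28B match 3, chr6:105081421-105081443: gtttacagcaaaaggCTACCTCa
LIN28B match 4, chr6:105082860-105082882: aaatgatggtgttgaCTACCTCt
HMGA2 match 1, chr12:65963298-65963320: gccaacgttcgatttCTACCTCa
HMGA2 match 2, chr12:65964533-65964555: ccccactactcaataCTACCTCt
HMGA2 match 3, chr12:65964945-65964967: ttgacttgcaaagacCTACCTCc
HMGA2 match 4, chr12:65965798-65965820: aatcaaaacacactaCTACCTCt
IGF2BP1 match 1, chr17:49051061-49051083: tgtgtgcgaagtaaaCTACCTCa
IGF2BP1 match 2, chr17:49053698-49053720: cagcagtgctagtaaCTACCTCa
IGF2BP1 match 3, chr17:49054352-49054374: gtataaatggattaaCTACCTCa
IGF2BP1 match 4, chr17:49054997-49055019: tcacttttgttttatCTACCTCt

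**Figure D1:**
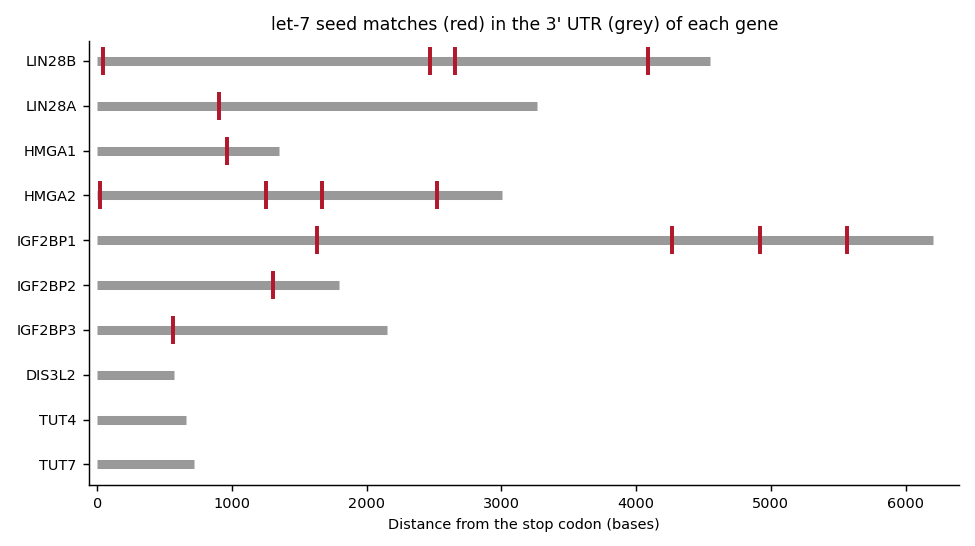
Positions of the let-7 seed matches (red) along the 3′ UTR (grey) of each gene, as the distance in bases from the stop codon on the x axis. The first match of LIN28B starts 44 bases and that of HMGA2 21 bases after the stop codon, and DIS3L2, TUT4 and TUT7 have short UTRs without a match.

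The number of the 10 genes that passed a test differed between the comparisons, and so did the background. A gene was called at a Benjamini-Hochberg adjusted p under 0.05 in edgeR's quasi-likelihood test over all genes that passed the filter on low counts. With sh-SOX9-AS1 in HCC1187, the contrast that chose the genes, 9 of the 10 passed the filter, of which 0 lay past the threshold as higher and 2 as lower, LIN28B, for which the genes were chosen, and HMGA2. Of all 14970 genes tested there 22.8% were called, 9.78% higher and 13.1% lower, and nothing is read from the number of the 10 genes. With library totals as the scaling in place of TMM, 2104 genes were called higher and 1545 lower, against 1464 and 1954 with TMM. With sh-SOX9-AS1 in MDA-MB-468, 7 of the 10 passed the filter and 0 were called, against a background of 0.00733%, which is 1 gene of 13638 (2554 at an unadjusted p under 0.05, and 282 by DESeq2). Without S4, 1 of 7 was called higher (TUT4) and 2 lower (HMGA1 and HMGA2), where 40.7% of all genes were called, 20.0% higher and 20.7% lower. Between the sh-CONTROL libraries of HCC1187 and MDA-MB-468, 6 of 9 were called higher in HCC1187 and 3 lower, where 84.1% of all genes were called, 43.6% higher and 40.4% lower. LIN28B and IGF2BP1 passed the filter in that comparison only through HCC1187, where they are high. Likewise HMGA2 passed it in MDA-MB-468, with and without S4, only through sh-CONTROL. With so large a share of all genes called in these last comparisons, nothing is read from the number of the 10 genes called, and their sizes are described below.

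**Figure D2:**
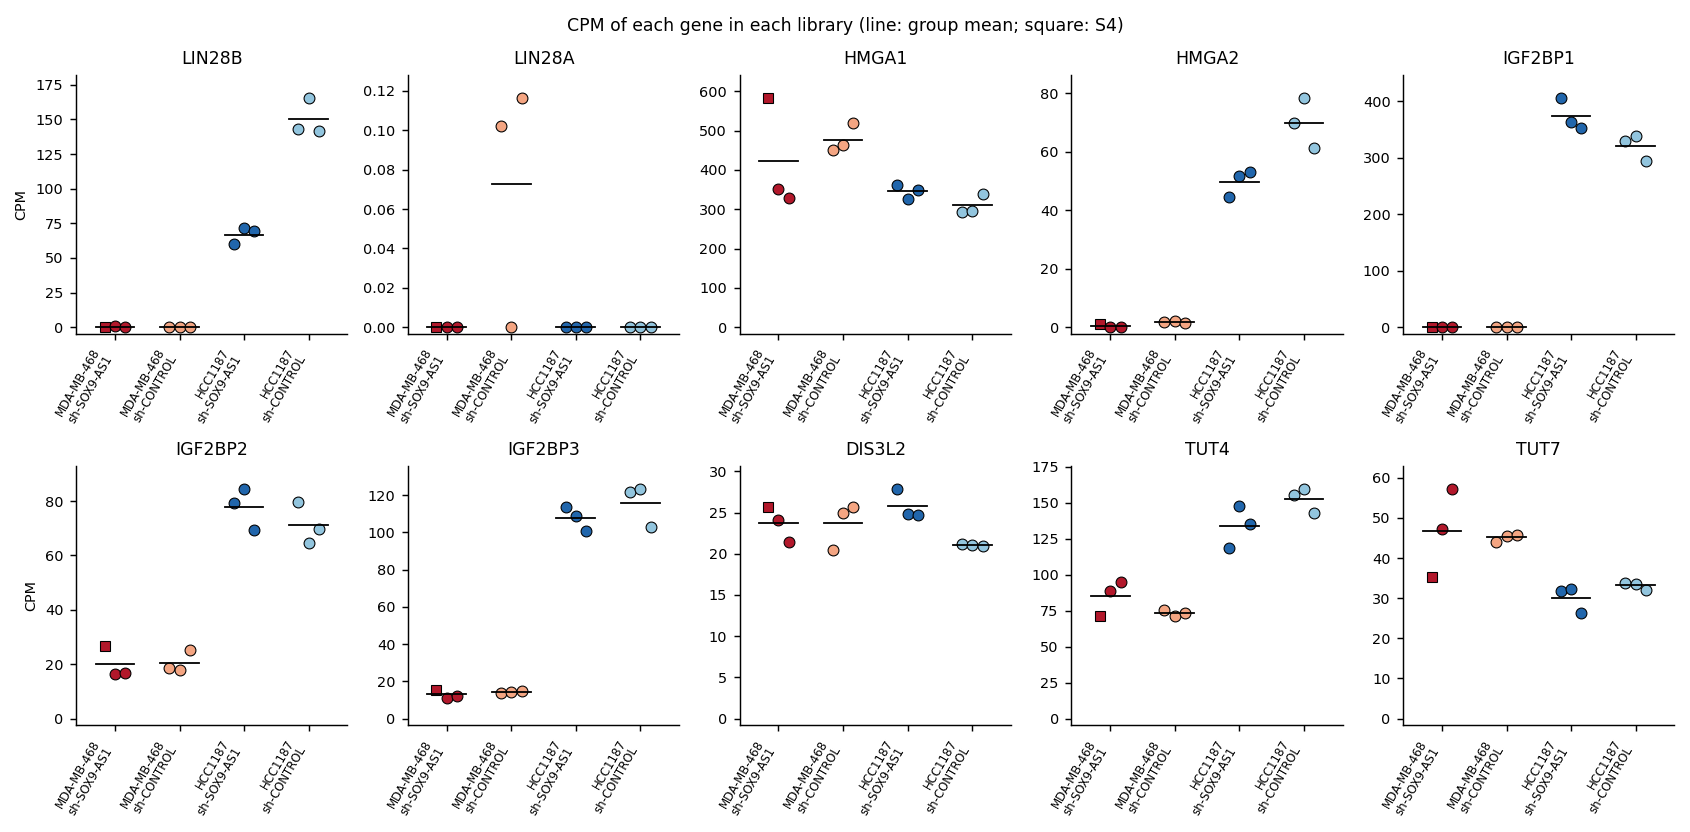
CPM on the y axis (each panel has its own scale) for each of the 10 genes in the 12 libraries, by group on the x axis, with a line at the group mean and S4 as a square. LIN28B, HMGA2 and IGF2BP1 are near 0 in all MDA-MB-468 libraries, and the LIN28B values of HCC1187 sh-SOX9-AS1 lie below those of HCC1187 sh-CONTROL without overlap.

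LIN28B lies on chromosome 6 (GRCh38, 104936616 to 105083332, plus strand). In HCC1187 it stood at 59.9, 71.3 and 69.6 CPM with sh-SOX9-AS1 (S10 to S12) and at 143, 166 and 142 CPM with sh-CONTROL (S7 to S9). All 3 knockdown libraries were below all 3 control libraries, with means of 66.9 ± 6.14 and 150 ± 13.6 CPM (SD, n = 3 each). The log2 fold change was −1.22 ± 0.10 (SE), a 2.33-fold lower level. In bulk RNA a lower level per cell and fewer cells of a type that expresses the gene cannot be told apart. The HEK293-line markers moved the same way in these libraries: the neurofilament gene NEFM had 114, 139 and 113 CPM with sh-SOX9-AS1, against 230, 232 and 249 CPM with sh-CONTROL. The part of such a cell line in the LIN28B values was not tested.

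In MDA-MB-468, LIN28B had 2, 6 and 2 counts with sh-SOX9-AS1 (S4 to S6) and 3, 3 and 2 counts with sh-CONTROL (S1 to S3). These values are at or near the detection floor of 3 counts per library, so no change could be read at this depth. Over the sh-CONTROL libraries LIN28B had 4051 counts in HCC1187 and 8 in MDA-MB-468, a ratio per library size of 491 (exact 95% interval 249 to 1139, counting error only), and over the sh-SOX9-AS1 libraries 1530 and 10 counts, a ratio of 149 (81.0 to 312). LIN28A, its paralogue on chromosome 1, had 0 counts in all 6 HCC1187 libraries and in the 3 MDA-MB-468 sh-SOX9-AS1 libraries, and 1, 0 and 1 counts in MDA-MB-468 sh-CONTROL. The LIN28 message detected in HCC1187 was thus that of LIN28B, within a floor of 0.295 to 0.498 CPM per library for 3 counts, and in MDA-MB-468 both genes were at or near their floor.

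Some other genes had nearly the same profile as LIN28B over the 12 libraries. By the root mean square difference of mean-centred log2(CPM + 1) values, the 5 closest of 12236 genes were BCAT1 (0.185), which encodes a cytosolic branched-chain aminotransferase, SHISA2 (0.213), GJA1 (0.265), the gap junction protein connexin 43, CXCR4 (0.266), a chemokine receptor, and CREB5 (0.294), a transcription factor. BCAT1 averaged 67.6 CPM in HCC1187 with sh-SOX9-AS1 and 114 CPM with sh-CONTROL, and SHISA2 51.0 and 136 CPM. Each of the 5 averaged at most 0.144 CPM in both MDA-MB-468 groups. All 5 shared with LIN28B a level near 0 in MDA-MB-468 and a lower mean with sh-SOX9-AS1 than with sh-CONTROL in HCC1187. They were picked for their likeness to LIN28B over these same libraries, so nothing is read from what they share.

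HMGA2, on chromosome 12, stood in HCC1187 at 44.5, 51.8 and 53.1 CPM with sh-SOX9-AS1 (mean 49.8 ± 4.64) and at 69.8, 78.5 and 61.2 CPM with sh-CONTROL (mean 69.9 ± 8.65, SD, n = 3 each). The groups did not overlap, and the log2 fold change was −0.54 ± 0.11, 1.45-fold lower. In MDA-MB-468 HMGA2 was a rare message, with 7, 2 and 1 counts under sh-SOX9-AS1 and 19, 17 and 12 counts under sh-CONTROL. Here too every knockdown library lay below every control library, S4 being the nearest to the controls. The summed counts, 10 against 48, gave a ratio of 0.247 per library size (exact 95% interval 0.112 to 0.495, counting error only), and 3 against 48, without S4, a ratio of 0.108 (0.0215 to 0.336). Over all 6 libraries the log2 fold change was −1.95 ± 0.57 (95% interval −3.26 to −0.64), and without S4 it was −3.09 ± 0.62. No p is given for this contrast, because HMGA2 passed the filter on low counts there only through sh-CONTROL, where it is higher. It was not called over all 6 libraries. Among the alternatives it was called only without S4, with no filter and with all 12 libraries fitted together, and nothing is read from these calls. Over all alternatives the log2 fold change ran from −3.09 to −1.54. The difference of the responses, HCC1187 minus MDA-MB-468, was 1.43 ± 0.50 on the log2 scale and is given without a test, since it contains the contrast that chose the genes. Under sh-CONTROL, HMGA2 was higher in HCC1187 by 5.01 ± 0.16 on the log2 scale (edgeR quasi-likelihood test, adjusted p = 2.64e-17).

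HMGA1, on chromosome 6, had the highest level per kb of gene length of the 10 genes in both lines. In HCC1187 it had 362, 326 and 348 CPM with sh-SOX9-AS1 and 294, 296 and 339 CPM with sh-CONTROL, groups that overlapped, with a log2 fold change of 0.10 ± 0.09. The MDA-MB-468 values were 584, 352 and 329 CPM with sh-SOX9-AS1 and 450, 462 and 519 CPM with sh-CONTROL. S4 was the highest of these 6 libraries, and S5 and S6 were below all 3 controls. With all 6 libraries the log2 fold change was −0.16 ± 0.20 (95% interval −0.63 to 0.31, edgeR quasi-likelihood test, adjusted p = 0.675), and without S4 it fell by 0.46 ± 0.09 (adjusted p = 0.000545). The adjusted p ran from 0.000545 to 0.982 over the alternatives. In the control libraries HMGA1 was lower in HCC1187 than in MDA-MB-468 (log2 fold change −0.86 ± 0.08, adjusted p = 3.01e-09 in edgeR), the direction opposite to that of HMGA2. Pseudogenes of HMGA1 had at most 15 counts over the 12 libraries.

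IGF2BP1, on chromosome 17, holds as many let-7 seed matches as LIN28B and HMGA2 but did not share their direction. In HCC1187 it had 407, 363 and 352 CPM with sh-SOX9-AS1 and 330, 339 and 295 CPM with sh-CONTROL. The knockdown libraries lay above the controls without overlap, with a log2 fold change of 0.16 ± 0.08 (95% interval −0.01 to 0.34). In MDA-MB-468 it had 1, 5 and 0 counts with sh-SOX9-AS1 and 0, 0 and 2 counts with sh-CONTROL, at or near the floor. Over the sh-CONTROL libraries the 8690 counts of HCC1187 against 2 in MDA-MB-468 gave a ratio of 4216 per library size (exact 95% interval 1167 to 34820, counting error only), the widest difference between the lines among the 10 genes. Both MDA-MB-468 counts came from S3, so the size rests on that library: the fitted log2 fold change, which depends on the prior count, was 11.58 with all 6 libraries, 14.4 without S3 and 10.97 without S1. No p is given, because IGF2BP1 passed the filter on low counts only through HCC1187.

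IGF2BP2, on chromosome 3, overlapped between the shRNA groups of both lines. It averaged 77.7 ± 7.75 CPM with sh-SOX9-AS1 and 71.3 ± 7.57 CPM with sh-CONTROL in HCC1187 (SD, n = 3 each), and 20.0 ± 5.93 and 20.5 ± 4.14 CPM in MDA-MB-468. The log2 fold change in MDA-MB-468 was −0.02 (95% interval −0.55 to 0.51, edgeR adjusted p = 0.96), and −0.29 (−0.65 to 0.07, adjusted p = 0.185) without S4. Between the sh-CONTROL libraries it was higher in HCC1187 by 1.56 ± 0.12 on the log2 scale (edgeR adjusted p = 1.14e-10).

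IGF2BP3, on chromosome 7, averaged 108 ± 6.36 CPM with sh-SOX9-AS1 and 116 ± 11.4 CPM with sh-CONTROL in HCC1187, and 12.9 ± 2.23 and 14.2 ± 0.476 CPM in MDA-MB-468 (SD, n = 3 each). Its log2 fold change in MDA-MB-468 was −0.12 (95% interval −0.50 to 0.27, edgeR adjusted p = 0.705), and −0.26 (−0.59 to 0.07, adjusted p = 0.198) without S4. Its control level was higher in HCC1187 than in MDA-MB-468 by 2.79 ± 0.10 on the log2 scale (edgeR adjusted p = 1.76e-16). These values are uncertain: IGF2BP3 shares 1521 exon bases with MALSU1 on the opposite strand, which averaged 41.6 and 53.2 CPM in MDA-MB-468 with sh-SOX9-AS1 and with sh-CONTROL, and no source used here says whether the counting used strand. All 3 IGF2BP genes thus stood higher in HCC1187 than in MDA-MB-468 under sh-CONTROL, by very different factors.

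The genes of the tailing and decay step were present in both lines at moderate levels. TUT4, on chromosome 1, adds the uridine tail to let-7 precursors bound by LIN28. It had 119, 147 and 135 CPM with sh-SOX9-AS1 and 156, 160 and 143 CPM with sh-CONTROL in HCC1187, where S11 lay within the control range (log2 fold change −0.25 ± 0.09). In MDA-MB-468 it had 71.6, 89.0 and 95.1 CPM with sh-SOX9-AS1 and 75.7, 71.5 and 73.2 CPM with sh-CONTROL, S4 lying among the controls and S5 and S6 above them. The log2 fold change there was 0.24 ± 0.13 with all 6 libraries (edgeR adjusted p = 0.331), and TUT4 rose by 0.35 ± 0.09 without S4 (adjusted p = 0.0064, with a range of 0.0064 to 0.712 over the alternatives). The difference of the responses, HCC1187 minus MDA-MB-468, was −0.47 ± 0.17, given without a test. Control levels of TUT4 were higher in HCC1187 than in MDA-MB-468 by 0.82 ± 0.08 on the log2 scale (edgeR adjusted p = 1.85e-09).

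TUT7, on chromosome 9, acts alongside TUT4. It had 31.7, 32.4 and 26.4 CPM with sh-SOX9-AS1 and 33.9, 33.5 and 32.1 CPM with sh-CONTROL in HCC1187, and 35.3, 47.3 and 57.3 CPM with sh-SOX9-AS1 and 44.0, 45.5 and 45.8 CPM with sh-CONTROL in MDA-MB-468. In both lines the groups overlapped, and S4 was the lowest MDA-MB-468 library. The MDA-MB-468 log2 fold change was 0.07 (95% interval −0.32 to 0.47, edgeR adjusted p = 0.832), and 0.24 (0.0028 to 0.47, adjusted p = 0.0988) without S4. Its control level was lower in HCC1187 (log2 fold change −0.68 ± 0.09, edgeR adjusted p = 8.22e-07), so TUT4 and TUT7 differed between the lines in opposite directions.

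DIS3L2, on chromosome 2, encodes the exonuclease that degrades uridine-tailed let-7 precursors. It had 27.9, 24.8 and 24.7 CPM with sh-SOX9-AS1 and 21.2, 21.1 and 20.9 CPM with sh-CONTROL in HCC1187. The groups did not overlap, and the log2 fold change was 0.23 ± 0.12. In MDA-MB-468 it averaged 23.7 ± 2.11 CPM with sh-SOX9-AS1 and 23.7 ± 2.83 CPM with sh-CONTROL (log2 fold change 0.03, 95% interval −0.30 to 0.36, edgeR adjusted p = 0.926). The control level was lower in HCC1187 than in MDA-MB-468 (log2 fold change −0.40 ± 0.12, edgeR adjusted p = 0.00415), but with library totals as the scaling it was −0.16 and not called (adjusted p = 0.207). That scaling moved the median log2 fold change of all genes between the lines to 0.29, against 0.06 with TMM, and of the members tested only DIS3L2 lost its call by it.

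**Figure D3:**
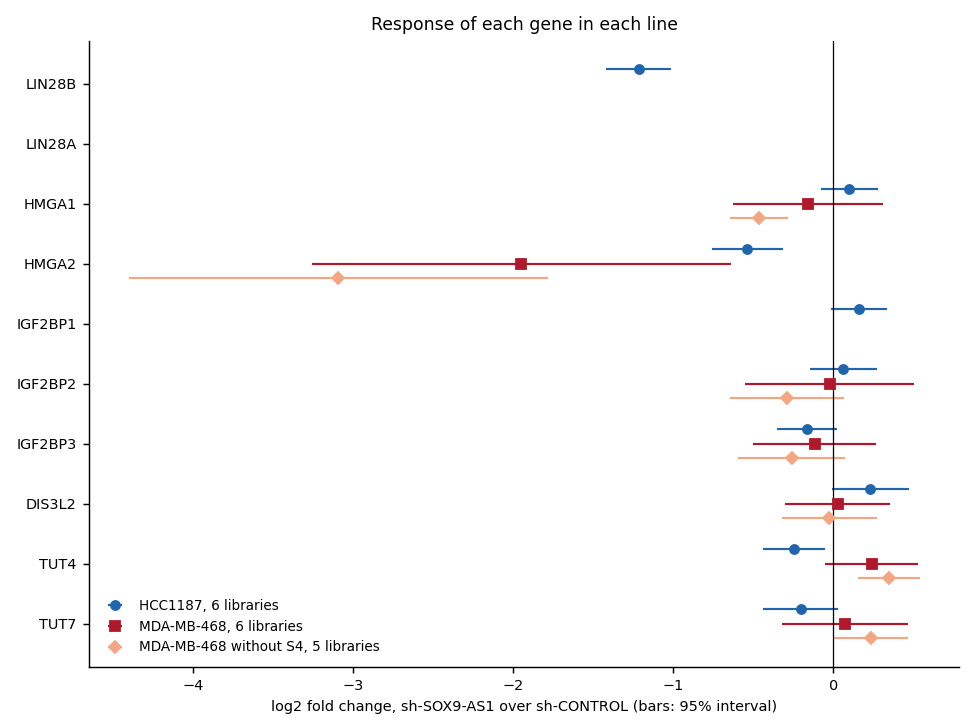
Log2 fold change of sh-SOX9-AS1 over sh-CONTROL on the x axis for each gene, with its 95% interval, in HCC1187 (blue circles), MDA-MB-468 (red squares) and MDA-MB-468 without S4 (orange diamonds). LIN28B lies at −1.22 in HCC1187, HMGA2 lies below 0 in all 3 fits, and LIN28A as well as LIN28B and IGF2BP1 in MDA-MB-468 have no estimate because they did not pass the filter on low counts.

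Per kb of gene length, the order of the control levels was different in the lines. In HCC1187 sh-CONTROL it was led by HMGA1 (133 CPM per kb), IGF2BP1 (33.4), LIN28B (25.3), IGF2BP2 (15.1) and IGF2BP3 (13.6), with TUT4 (9.44), TUT7 (4.95), HMGA2 (4.54) and DIS3L2 (1.86) below them. Of these neighbours IGF2BP2 and IGF2BP3, and TUT7 and HMGA2, did not differ beyond their spread between libraries. In MDA-MB-468 sh-CONTROL HMGA1 (205 CPM per kb) was followed by TUT7 (6.73), TUT4 (4.54), IGF2BP2 (4.34), DIS3L2 (2.09) and IGF2BP3 (1.67), of which TUT4 and IGF2BP2 did not differ beyond their spread. HMGA2 was at 0.119 CPM per kb there, and LIN28B, LIN28A and IGF2BP1 were at or near the floor. The length used is that deposited for each gene, and isoforms were not counted apart.

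**Figure D4:**
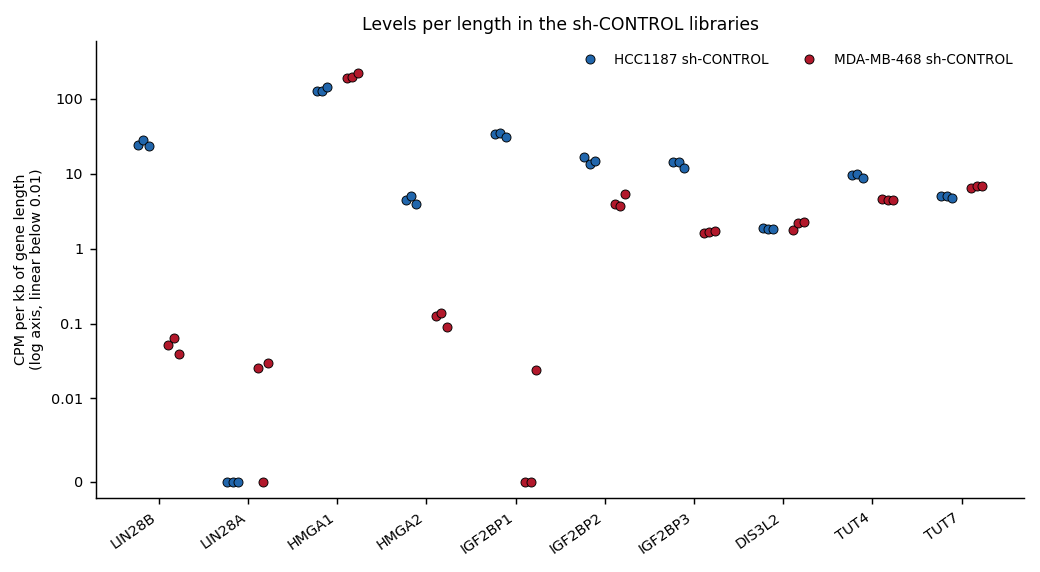
CPM per kb of gene length on a log axis (linear below 0.01) in the 3 sh-CONTROL libraries of HCC1187 (blue) and of MDA-MB-468 (red) for each of the 10 genes. LIN28B, HMGA2 and IGF2BP1 differ most between the lines, and HMGA1 is the highest in both.

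Other genes of the pathway were taken from lists that were drawn up with earlier results of these data known. Each count stands against the shares of all genes called: 9.78% higher and 13.1% lower in HCC1187, 20.0% and 20.7% in MDA-MB-468 without S4, and 43.6% and 40.4% between the control libraries. Genes near 0 in 1 line passed the filter only through the other, so the control counts are a description, and no p is given for such a gene. Of 14 genes that act on LIN28 or on let-7 maturation, all 14 were tested in HCC1187, where 6 were called lower, 0 higher and 8 not (median log2 fold change −0.17, against 0.01 for all genes tested). Among those called lower were SYNCRIP, a message-binding protein (−0.35 ± 0.09), MSI2, a Musashi protein (−0.34 ± 0.09), and TRIM71 (−0.28 ± 0.10), a developmental ubiquitin ligase and RNA-binding protein that is itself a let-7 target. TRIM71 averaged 43.6 CPM with sh-SOX9-AS1 and 51.1 CPM with sh-CONTROL in HCC1187, against 0 and 0.0340 CPM in the same groups of MDA-MB-468. In MDA-MB-468, 0 of 12 tested were called with all 6 libraries, and without S4 3 rose and 4 fell, among them the ubiquitin ligase TRIM25 (−0.67 ± 0.10, edgeR adjusted p = 9.78e-05) and the let-7 processing factor KHSRP (−0.51 ± 0.08, adjusted p = 0.00015). Under sh-CONTROL 9 were higher in HCC1187, 4 lower and 1 not called, with MSI1 at 31.6 CPM in HCC1187 and 0.277 CPM in MDA-MB-468.

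Of 13 genes of microRNA processing, 2 were called higher, 1 lower and 10 not in HCC1187 (median log2 fold change 0.00). The GW182 genes TNRC6B (0.32 ± 0.10) and TNRC6A (0.30 ± 0.09), scaffolds of microRNA repression, were the higher ones, and DICER1, which cuts the hairpin, was the lower one (−0.30 ± 0.09). In MDA-MB-468 0 of 13 were called with all 6 libraries (median −0.24). Without S4 AGO4 rose (0.69 ± 0.11, edgeR adjusted p = 0.000135), 6 genes fell, among them AGO2, the slicing Argonaute (−0.76 ± 0.10, adjusted p = 3.25e-05), and DGCR8, the partner of DROSHA (−0.45 ± 0.09, adjusted p = 0.00104), and 6 were not called. Among the control libraries 8 were higher in HCC1187, 1 lower and 4 not called, with AGO2 at 268 CPM in HCC1187 and 97.4 CPM in MDA-MB-468 (edgeR adjusted p = 5.88e-12).

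Mature let-7 was not measured, since the libraries were made from polyadenylated RNA, and each let-7 hairpin gene averaged at most 0.246 CPM in any group. Of 19 hairpin genes and host transcripts, 18 were found in the tables, and 4 passed the filter in HCC1187, where 0 were called. In MDA-MB-468 5 passed it and 0 were called with all 6 libraries. Without S4 MIR99AHG, the host of let-7c, rose (1.23 ± 0.33, edgeR adjusted p = 0.00822), and MIRLET7IHG, at the let-7i locus, had a log2 fold change of −1.32 ± 0.43. Both were rare messages in MDA-MB-468, near the filter on low counts. MIRLET7IHG averaged below that filter with sh-SOX9-AS1 and passed it through sh-CONTROL, where it is higher. No p is given for MIRLET7IHG, and nothing is read from its call. MIR99AHG averaged 2.26 CPM with sh-SOX9-AS1, S4 included, and 1.34 CPM with sh-CONTROL. MIRLET7IHG averaged 5.64 CPM with sh-SOX9-AS1 and 5.57 CPM with sh-CONTROL in HCC1187, against 1.08 and 2.69 CPM in MDA-MB-468. MIRLET7BHG, which carries let-7a-3 and let-7b, was lower in HCC1187 than in MDA-MB-468 under sh-CONTROL (0.658 against 3.68 CPM), the other 4 tested being higher.

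Of 29 known let-7 targets outside the 10 genes, 11 were called lower, 0 higher and 18 not in HCC1187, where 13.1% of all genes were called lower and 9.78% higher. The median log2 fold change was −0.21 against 0.01 for all genes tested. Among those called lower were THBS1, a matrix glycoprotein (−1.16 ± 0.30), TGFBR1, a TGF-beta receptor (−0.88 ± 0.11), and CDK6, a cell cycle kinase (−0.74 ± 0.10). CDK6 averaged 102 CPM with sh-SOX9-AS1 and 166 CPM with sh-CONTROL, whereas THBS1 was rare, at 1.43 and 3.30 CPM. Some genes, such as DICER1 and TRIM71, are counted in more than 1 list. In MDA-MB-468 0 of 25 were called with all 6 libraries, and CDK6 had a log2 fold change of −1.11 ± 0.31 (edgeR adjusted p = 0.205). Without S4 10 fell, 4 rose and 11 were not called, in a fit that called 40.7% of all genes. MYC (−1.77 ± 0.10, adjusted p = 4.07e-09), THBS1 (−3.99 ± 0.23, adjusted p = 4.24e-09), CCND1 (−1.20 ± 0.09, adjusted p = 7.97e-08) and CDK6 (−1.64 ± 0.14, adjusted p = 3.16e-07, all edgeR) were among those that fell. In the control libraries 18 of 28 were higher in HCC1187, 8 lower and 2 not called, with ARID3B, a DNA-binding protein gene, at 140 CPM in HCC1187 and 3.28 CPM in MDA-MB-468 (edgeR adjusted p = 1.03e-18).

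The same question was put to all genes by their seed matches, leaving out the 10 genes. In HCC1187 the share called lower was 27.9% of 140 genes with at least 2 matches, 20.7% of 1160 genes with 1 match and 13.8% of 11446 genes with no match. The genes with matches also have longer UTRs. Among 556 genes with no match and a UTR at least as long as the median of the genes with 2 or more, 32.4% were called lower, and the median log2 fold change was −0.19, against −0.15 for the genes with 2 or more matches. These UTRs are not matched in length: their median was 6427 bases, against 5047 bases for the genes with 2 or more matches. The part of UTR length in these shares was not tested. In MDA-MB-468 without S4 the shares called lower were 23.7%, 25.2% and 21.5% for 2 or more, 1 and no match, and 27.1% for no match with a long UTR. These are counts over genes and not tests over libraries.

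**Figure D5:**
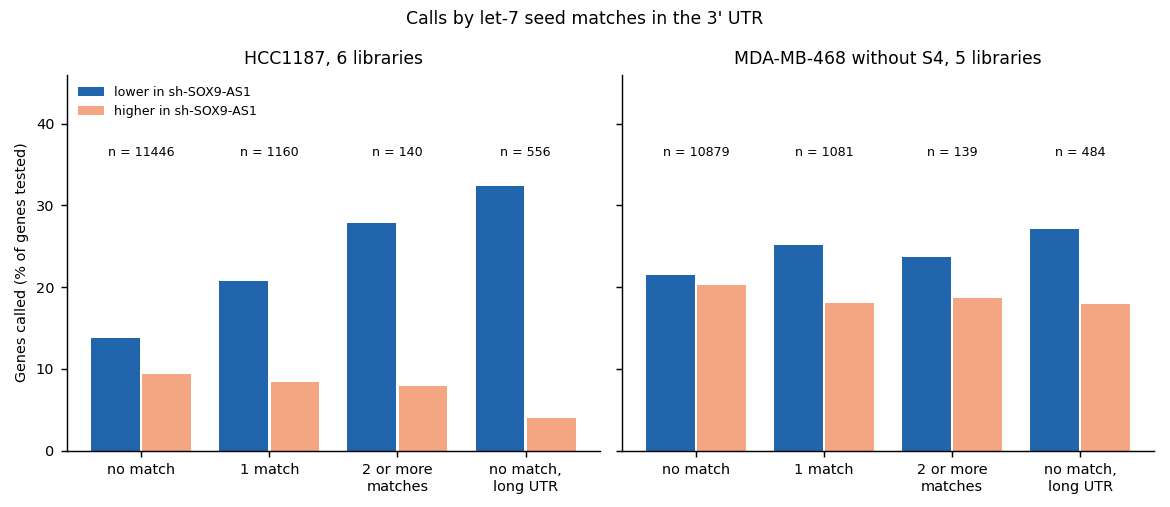
Share of genes called lower (blue) and higher (orange) with sh-SOX9-AS1, in percent of genes tested on the y axis, by the number of let-7 seed matches in the 3′ UTR, in HCC1187 (left) and MDA-MB-468 without S4 (right). The 556 genes with a long UTR and no match in HCC1187 have the highest share called lower, 32.4%.

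Partners of the IGF2BP proteins and genes of the m6A mark that these proteins read, 15 in number, were mostly not called in HCC1187, where 2 were lower, 0 higher and 13 not (median log2 fold change −0.10). The lower ones were YTHDF3, an m6A reader (−0.62 ± 0.10), and WTAP, of the m6A writer complex (−0.26 ± 0.09). In MDA-MB-468 0 of 15 were called with all 6 libraries (median −0.26), and without S4 10 fell, 2 rose and 3 were not called, where 20.0% of all genes were called higher and 20.7% lower. The falls included YTHDF1 (−0.67 ± 0.09, edgeR adjusted p = 5.75e-05), the helicase gene DHX9 (−0.53 ± 0.08, adjusted p = 7.9e-05) and PABPC1, which binds poly(A) tails (−0.41 ± 0.07, adjusted p = 0.000423). Between the sh-CONTROL libraries 6 were higher in HCC1187, 5 lower and 4 not called, with the m6A eraser gene ALKBH5 at 346 CPM in HCC1187 and 89.3 CPM in MDA-MB-468 (edgeR adjusted p = 5.16e-15).

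Of 13 genes of the insulin-like growth factor axis, to which the IGF2BP proteins owe their name, 11 were tested in HCC1187, with 1 called higher (the clearance receptor IGF2R, 0.31 ± 0.09), 3 lower and 7 not (median log2 fold change −0.23). The lower ones were H19 (−1.55 ± 0.46), a non-coding RNA beside IGF2, and the binding protein genes IGFBP3 (−1.17 ± 0.23) and IGFBP5 (−0.87 ± 0.11). IGFBP5 averaged 55.8 CPM with sh-SOX9-AS1 and 98.6 CPM with sh-CONTROL, whereas H19 averaged 0.491 and 1.53 CPM and IGFBP3 2.69 and 5.83 CPM. H19 averaged below the filter on low counts with sh-SOX9-AS1 and passed it through sh-CONTROL, where it is higher. Nothing is therefore read from the call of H19. In MDA-MB-468 0 of 9 were called with all 6 libraries, and without S4 2 rose and 4 fell. IGFBP5 rose there (1.19 ± 0.20, edgeR adjusted p = 0.000303), IGFBP3 fell (−0.87 ± 0.13, adjusted p = 0.000122) and so did the adaptor gene IRS1 (−1.64 ± 0.23, adjusted p = 4.58e-05). Under sh-CONTROL, 4 were higher in HCC1187, among them IGF1R (2.01 ± 0.08, edgeR adjusted p = 1.69e-15), 5 were lower, among them IGFBP3 (−7.97 ± 0.16, adjusted p = 9.78e-21), and 2 were not called.

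Of 14 other embryonic and oncofetal genes, 7 were tested in HCC1187, with 0 higher, 2 lower and 5 not (median log2 fold change −0.09). The lower ones were the transcription factor genes ZIC2 (−0.63 ± 0.14) and TFAP2A (−0.35 ± 0.09). In MDA-MB-468 0 of 5 were called with all 6 libraries. Without S4 PEG10, a paternally expressed retrotransposon-derived gene, fell (−1.26 ± 0.17, edgeR adjusted p = 3.56e-05), and MYCN rose (0.79 ± 0.17, adjusted p = 0.00207). POU5F1 had a log2 fold change of 1.12 ± 0.40 in that fit. It was a rare message there, at 2.31 CPM with sh-SOX9-AS1, S4 included, and 1.07 CPM with sh-CONTROL. POU5F1 averaged below the filter on low counts with sh-CONTROL and passed it through sh-SOX9-AS1, where it is higher. No p is given for POU5F1, and nothing is read from its call. Among the control libraries 4 were higher in HCC1187, among them the cell surface proteoglycan gene GPC3 (43.6 against 0.305 CPM) and the stem cell factor gene SALL4 (13.3 against 0.118 CPM). The 3 lower ones included PEG10 (1.65 against 137 CPM, edgeR adjusted p = 7.78e-17) and MYCN (1.80 against 8.46 CPM, adjusted p = 1.75e-09).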

How the data were processed

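The authors deposited gene counts for each lane of each library, and a gene length in bases (an other value), which gave CPM per kb. Lane 1 alone was used, because the columns outnumber the samples, and 24 columns of counts were left out. Columns were assigned to groups by the description that a group's samples share (BLANCO in the knockdown ones, a word no source used here explains), and they hold no replicate number. The tools named in the submitters' processing notes are FastQC 0.11.9, MultiQC 1.11 and Trimmomatic 0.39, then HISAT2 2.1.0 with GRCh38, SAMtools, and featureCounts 2.0.0. Annotation release and strand setting: not given in the sources used here. Per the labels, RNA was extracted with TRIzol and made into stranded TruSeq mRNA libraries with paired 76 bp reads.

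CPM used library totals. Contrasts were fitted by quasi-likelihood in edgeR 4.0.16 (R 4.3.3) with TMM scaling and filterByExpr (at least 10 counts, 15 in total), and p-values were adjusted by Benjamini-Hochberg over all genes tested, with a threshold of 0.05. A standard error is the log2 fold change divided by the square root of F. The code was tested on simulated data. Alternatives were RLE or total scaling, no filter, CPM 1 in at least 3 libraries, DESeq2 1.42.0, all 12 libraries together and each library left out. The genes and lists were chosen with earlier results of these data known. Of each list up to 4 genes could be named, by smallest p or, in HCC1187, by largest change among those called, and not all are printed. Genes compared with LIN28B had a mean of at least 5 CPM. Of 121 list genes, 115 were matched by symbol and 5 by gene ID (AGO1 to AGO4, whose symbols stand as dates in the tables, and MIRLET7IHG), and MIRLET7DHG is not analysed here.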

Additional observations from a re-analysis of the deposited data

How the results depend on the processing

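Of 300 alternative values of the 10 genes, 292 kept their direction where called and their side of the threshold, 7 passed that had not before, 1 no longer passed and 0 reversed. The losses and gains of HMGA1, HMGA2, TUT4 and DIS3L2 in MDA-MB-468 and between the lines stand in the report. The other gains were those of TUT4 in HCC1187, with no filter on low counts and without S11. In HCC1187, where no test of these genes is drawn, the log2 fold change of LIN28B stayed between −1.29 and −1.14 under all settings run, and that of HMGA2 between −0.62 and −0.45. The count of genes called in MDA-MB-468 was 1441 with no filter on low counts, 282 with DESeq2 and 887 with all 12 libraries fitted together, and 0 to 5676 with a library left out (the last without S4). In HCC1187 it was 1499 with all 12 libraries fitted together and 2213 (without S8) to 3410 with a library left out, against 3418. Between the sh-CONTROL libraries leaving a library out gave 12939 to 13463. The cause of these changes was not tested. No paired analysis was possible because the count columns carry no replicate number. Depth limits the rare messages most: LIN28A in both lines and LIN28B, IGF2BP1 and HMGA2 in MDA-MB-468 rest on 0 to 19 counts per library from 1 of 3 lanes.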
